A study of Mus musculus with 22 samples.

Results

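The H2A variant genes described here encode mouse histone H2A proteins that take the place of canonical H2A in nucleosomes: H2afz and H2afv, which encode the forms of H2A.Z, H2afx (H2A.X), H2afy and H2afy2 (macroH2A), and H2afj (H2A.J). Members were taken by gene symbol from the table of FPKM (fragments normalised to transcript length and library size), which gave 6 of its 55335 genes, each matched by a single row. The study injected siRNA against H2A.Z into mouse zygotes and made Smart-seq2 libraries, which are primed on poly(A) tails, of knockdown (KD) and control embryos. There were 22 libraries of 15 pooled embryos each, in 6 groups of stage and treatment.

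The labels give the strain as B6D2F1, and the embryos came from B6D2F1 mothers 8 weeks old mated with B6D2F1 males. KD embryos had received about 10 pL of a mixture of 3 siRNA pairs at 20 µM as zygotes. After hCG, the hormone that triggers ovulation, the times were 44 h for the 2-cell stage, 78 h for morulae and 94 h for blastocysts. The 2-cell stage had 4 control and 3 KD libraries, the morula stage 4 control and 3 KD libraries, and the blastocyst stage 4 control and 4 KD libraries. The sources used here do not state which H2A.Z gene each siRNA pair matches, nor whether the control embryos of these libraries were injected. For its quantitative PCR the study names noninjected controls. If the controls of these libraries were the same, effects of injection and of KD cannot be told apart. Each library is a pool, so differences between embryos within it are not seen, and p-values measure the spread between pools. The methods name the HiSeq and NovaSeq sequencers as alternatives without saying which served a library. The number of reads behind an FPKM is unknown, which leaves counting error unmeasured. Between 24481 and 29177 genes had an FPKM above 0 in a library.

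The stages of the control libraries were checked against marker genes. For KD libraries the stage was taken from the labels, and the study reports that KD lowered blastocyst formation. Markers in KD morulae and blastocysts are compared with controls further below. The summed FPKM of 6 genes of the 2-cell stage, Tcstv3 the most abundant, was 342.8 to 615 in 2-cell controls, 5.68 to 17.7 in control morulae and 0.636 to 3.42 in control blastocysts. Trophectoderm markers, of which Krt18 was the most abundant in control blastocysts, summed to 20.8 to 36.1 FPKM in 2-cell controls and 1709 to 2396 FPKM in control blastocysts, and Cdx2 among them was listed at 0 in all 2-cell controls. Markers of cumulus and granulosa cells summed to at most 3.73 FPKM in any library, with Ptx3 and Fshr listed at 0 in all 22, and sperm markers to at most 1.33 FPKM.

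Nucleosomes wrap DNA around histones, and most H2A is made from clustered genes during DNA replication. Variant H2A genes are transcribed outside that window as well and yield polyadenylated RNA. H2A.Z sits at promoters and enhancers, H2A.X is phosphorylated next to DNA breaks, and macroH2A carries a large additional domain and marks silent chromatin.

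H2afz, on chromosome 3 (GRCm38, ENSMUSG00000037894.13, 137864487 to 137866922, plus strand), was the most abundant variant gene in control embryos at every stage. Its FPKM in the 4 control 2-cell libraries was 1244, 1236, 905 and 1178, against 415, 139 and 112 in the 3 KD libraries. Every KD library was below every control library, and KD replicate 1 held more H2afz than the other KD libraries. In morulae, H2afz was at 1158, 1336, 1511 and 1421 FPKM in controls and at 30.3, 25.7 and 29.0 in KD embryos. In blastocysts, it was at 2656, 2431, 1945 and 2055 FPKM in controls and at 64.2, 67.2, 53.2 and 57.6 in KD embryos. The groups did not overlap at any stage, and the KD libraries of the later stages lay close together. The KD mean was 19.4% of the control mean at the 2-cell stage, 2.09% in morulae and 2.67% in blastocysts. Without KD replicate 1, an alternative chosen after seeing the data, the 2-cell value was 11.0%. It was 23.1% without KD replicate 2 and 24.2% without KD replicate 4. H2afz ranked 35 by mean FPKM among all 55335 genes in 2-cell controls, 56 in control morulae and 29 in control blastocysts, and 214, 2358 and 1513 in the KD groups in the same order.

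H2afv, on chromosome 11 (ENSMUSG00000041126.16, 6427229 to 6444443, minus strand), encodes the other form of H2A.Z. At the 2-cell stage it was at 111, 118, 96.8 and 113 FPKM in controls and at 97.6, 85.4 and 83.7 FPKM in KD embryos. The 2-cell ranges met, since the highest KD library exceeded the lowest control library. In morulae, control values were 97.3, 113, 100.0 and 92.5 FPKM and KD values 12.9, 11.0 and 9.90 FPKM. In blastocysts, control values were 49.9, 62.0, 54.5 and 63.5 FPKM and KD values 19.9, 16.9, 10.6 and 13.9 FPKM. From the morula stage on, each KD library was below each control library. The KD mean was 81.1% of the control mean at the 2-cell stage, 11.2% in morulae and 26.6% in blastocysts.

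KD and control libraries of a stage were compared with limma on log2(FPKM + 1) after scaling of the libraries, so that fold changes of genes with low FPKM are understated. A gene was tested where 3 or more of the libraries compared had it at 1 FPKM or above, and adjusted p-values are Benjamini-Hochberg values over every gene tested. A gene was called at an adjusted p under 0.05, and was a DEG if its absolute log2 fold change was also above 1. At the 2-cell stage 4 members, without H2afy and H2afy2, were tested and limma called 0 of them, and 0% of all 12160 genes. An unadjusted limma p under 0.05 was found for 701 genes (5.76%), near the share that this threshold gives by chance, and for 1 member, H2afz. H2afz had the lowest p of all genes there, with a log2 fold change of -2.53 (SE 0.38; limma adjusted p = 0.543). Without KD replicate 1 it was -3.12 (limma adjusted p = 0.000907) and was called. In 1 fit over all 22 libraries, which also tested 5 members in place of 4, it was -2.49 (limma adjusted p = 0.000347) and was called too. The cause of these gained calls was not tested. Over all alternatives the limma adjusted p of H2afz ranged from 0.000347 to 0.861. For H2afv the 2-cell value was -0.23 (SE 0.16; limma adjusted p = 0.84).

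In morulae 5 members, without H2afy2, were tested and 2 were called, H2afz and H2afv, both lower, where 13.3% of all genes tested were called. Both encode H2A.Z, against which the siRNA was injected. Counts that include them, here and below, are thus no measure of the other members. The log2 fold change of H2afz was -5.41 (SE 0.17; limma adjusted p = 9.71e-08), the lowest of 10989 genes, whose median was 0.02, and -0.09 with FPKM as deposited and -0.14 with TPM. That of H2afv was -2.93 (SE 0.15; limma adjusted p = 2.93e-06), the sixth lowest. In blastocysts 4 of 5 members tested were called, 3 lower and 1 higher, where 36.5% of all genes tested were called. H2afz had a log2 fold change of -5.19 (SE 0.20; limma adjusted p = 3.63e-08) and H2afv of -1.86 (SE 0.22; limma adjusted p = 7.95e-05). Leaving out any 1 library kept the calls of H2afz and H2afv in morulae and blastocysts.

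**Figure D1:**
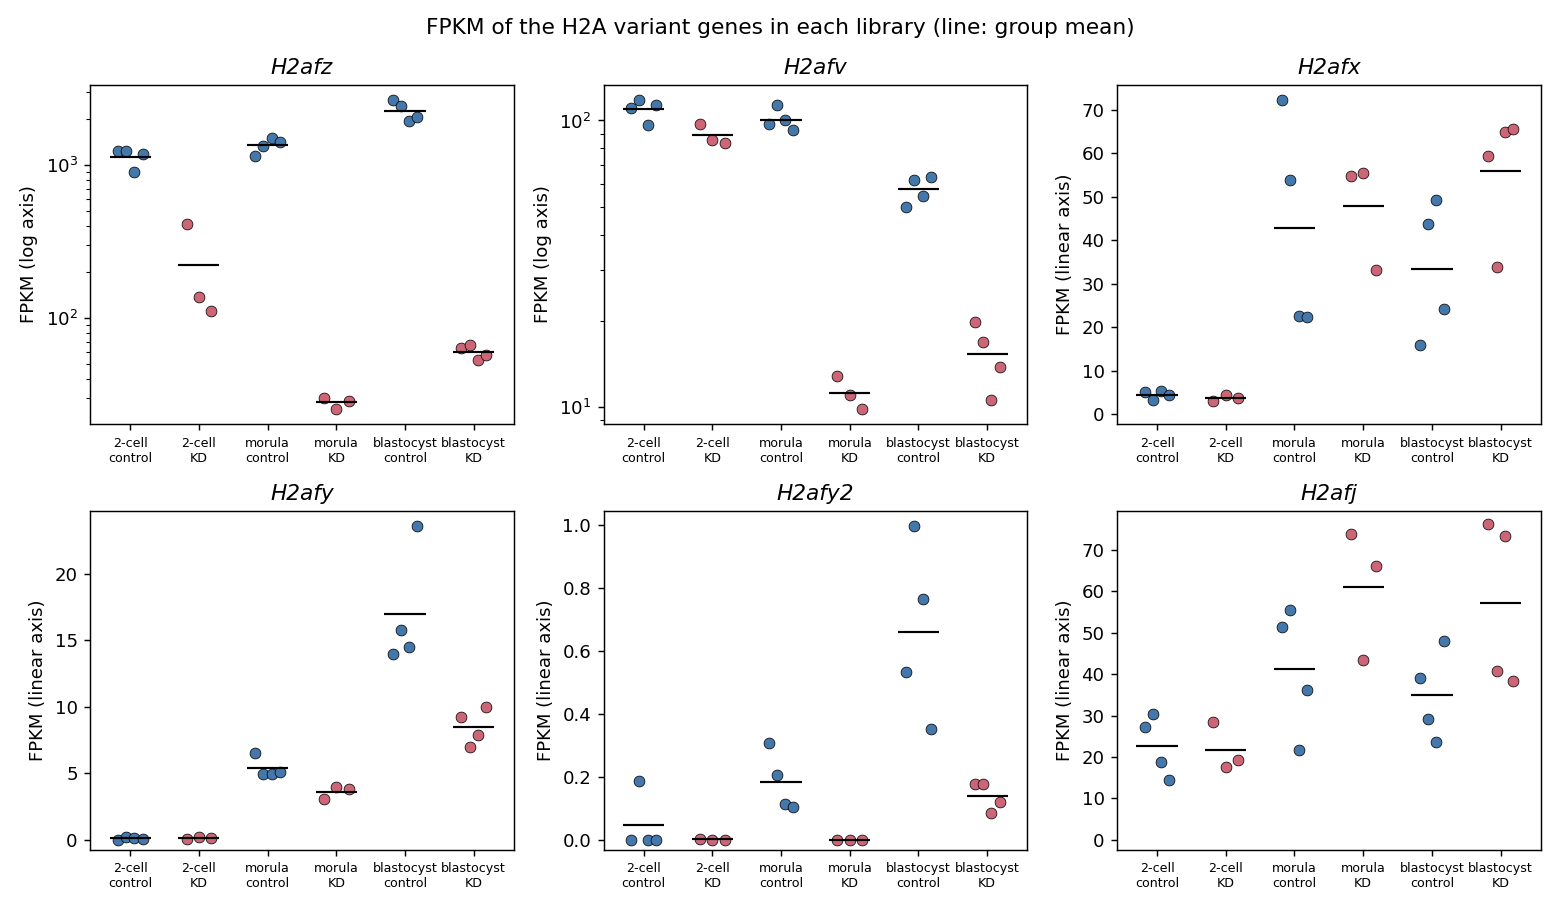
FPKM of each H2A variant gene in each library (points) with the group mean (line), for control (blue) and KD (red) embryos at each stage; the axes of H2afz and H2afv are logarithmic and the others linear. The 3 KD morula libraries lie between 25.7 and 30.3 FPKM for H2afz and between 9.90 and 12.9 FPKM for H2afv, below all 4 controls.

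The size of the KD effect differed between stages by its own test. For the difference between 2-cell embryos and morulae, limma called 2 of the 5 members tested, where 1.44% of all genes were called. The effect in morulae was lower by -2.88 on the log2 scale for H2afz (SE 0.48; limma adjusted p = 0.0089) and by -2.71 for H2afv (SE 0.22; limma adjusted p = 3.02e-05). Between morulae and blastocysts 1 of 5 members was called, H2afv, where 11.7% of all genes were called. The effect on H2afv was 1.04 higher in blastocysts (SE 0.27; limma adjusted p = 0.0207), that is, closer to 0, and 0.99 without KD morula replicate 6 (limma adjusted p = 0.0500), where it was no longer called. Without the filter on low FPKM it was not called either (limma adjusted p = 0.0659), nor was the earlier difference of H2afz (limma adjusted p = 0.0536), with ranges over all alternatives of 0.00201 to 0.0659 and 0.00211 to 0.0536. The sizes changed little: over the alternatives that kept every library, H2afv lay between 1.02 and 1.37 and H2afz between -2.97 and -2.88. The median difference of all genes between morulae and blastocysts was -0.01, and 0.11 with FPKM as deposited and 0.27 with FPKM rescaled to TPM, so part of the value of H2afv depends on scaling. For H2afz this difference was 0.18 (SE 0.26; limma adjusted p = 0.709), and 0.51 with TPM (limma adjusted p = 0.0501), the lowest p of its alternatives, which reached 0.936.

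Because H2afz and H2afv encode nearly alike proteins, their transcripts were compared in the GENCODE M21 reference, whose GRCm38 assembly is that of mm10. The longest coding transcripts, H2afz-201 and H2afv-202, have 5 exons each and coding sequences of 384 bases without the stop codon, which align with no gap. They were identical at 304 positions (79.2%) and differed at 80. The longest stretch shared without a difference was 14 bases, also over whole transcripts. The longest stretch that H2afz shared with coding transcripts of the other members was 11 bases for H2afx and H2afj, 12 for H2afy2 and 13 for H2afy. The siRNA sequences were not used here, so their match to either gene was not tested.

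Transcripts of 10 other genes shared 19 or more bases in a row with a coding transcript of H2afz, and 9 of them are processed pseudogenes. Gm8203 shared 387 bases, Gm13007 shared 116 and Gm6722 shared 81, and how reads in these stretches were assigned was not tested. Gm6722 had a mean of 34.9 FPKM in control morulae and 0.824 FPKM in KD morulae, and Gm13007 of 11.8 and 0.363 FPKM, while Gm8203 was at 0.0941 and 0.207 FPKM. Their levels were small beside the 1357 FPKM of H2afz in control morulae. The other gene, Wdr73, codes for protein and shared 19 bases, and had means of 25.1 FPKM in control and 18.6 FPKM in KD 2-cell embryos, 61.6 and 56.9 FPKM in morulae, and 30.9 and 51.5 FPKM in blastocysts.

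Shares of the variant genes differed between control and KD embryos. Of the FPKM summed over the 6 members, which may be compared between genes since FPKM divide by length, H2afz held 89.2% ± 0.767 (SD, n = 4) in 2-cell controls and 61.2% ± 13.3 (SD, n = 3) in KD 2-cell embryos. Control morulae had a share of 87.5% ± 3.59 (SD, n = 4) against 18.7% ± 1.57 (SD, n = 3) after KD. Control blastocysts had 93.9% ± 1.30 (SD, n = 4) against 31.2% ± 6.60 (SD, n = 4) after KD. KD libraries had lower shares of H2afz than all controls at each stage. The sum itself was 1547 ± 116 FPKM (SD, n = 4) in control morulae against 152 ± 19.6 FPKM (SD, n = 3) after KD. In blastocysts it was 2415 ± 319 FPKM (SD, n = 4) for controls against 198 ± 27.7 FPKM (SD, n = 4) after KD. The mean ratio of H2afz to H2afv was 10.4 in 2-cell controls, 13.6 in control morulae and 40.1 in control blastocysts, and 2.40, 2.54 and 4.10 in the KD groups. In KD 2-cell libraries the ratio ranged from 1.34 to 4.25, highest in replicate 1, in KD morulae from 2.33 to 2.93 and in KD blastocysts from 3.23 to 5.02.

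**Figure D2:**
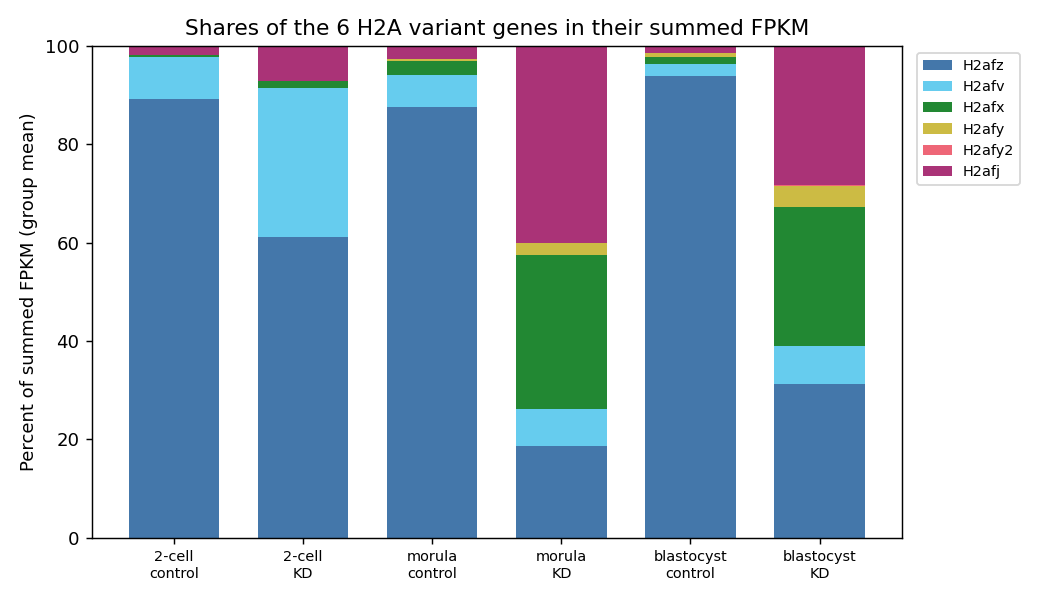
Mean share of each H2A variant gene in their summed FPKM (percent) for the 6 groups. H2afz made up 87.5% in control and 18.7% in KD morulae, where H2afj held 40.0% and H2afx 31.4%.

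The order of the members by mean FPKM differed between groups. In 2-cell controls it was H2afz, H2afv, H2afj, H2afx, H2afy and H2afy2, and neighbours did not overlap between libraries except H2afy and H2afy2. In control morulae H2afx and H2afj overlapped, behind H2afz and H2afv. In control blastocysts H2afj and H2afx overlapped, and so did H2afx and H2afy. In KD morulae H2afj and H2afx came first and overlapped, followed by H2afz, H2afv, H2afy and H2afy2 without overlap. In KD blastocysts H2afz, H2afj and H2afx overlapped, with means of 60.6, 57.2 and 56.0 FPKM.

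H2afx, whose product is phosphorylated at DNA breaks, lies on chromosome 9 (ENSMUSG00000049932.3, 44334694 to 44336077, plus strand) and has 1 exon. It was at 3.18 to 5.42 FPKM in 2-cell controls and 3.12 to 4.29 FPKM in KD 2-cell embryos, which overlapped. In morulae, control replicates 1 and 2 had 72.2 and 53.7 FPKM and replicates 7 and 8 had 22.5 and 22.2 FPKM, while KD replicates 1, 2 and 6 had 54.7, 55.5 and 33.0 FPKM. Libraries with replicate numbers 1 and 2 were thus higher in both groups, and the spread within the controls was wider than the difference between the groups. In blastocysts, H2afx was at 15.8, 43.7, 49.3 and 24.3 FPKM in controls and at 59.4, 33.9, 64.8 and 65.7 FPKM in KD embryos. Here 3 of 4 KD libraries exceeded all controls, and KD replicate 4 lay within the control range.

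The log2 fold change of H2afx was 0.43 in morulae (SE 0.36; limma adjusted p = 0.444) and 0.83 in blastocysts (SE 0.30; limma adjusted p = 0.0447). The morula value was 0.26 (SE 0.16) with a term for the range of replicate numbers, and 0.20 to 0.67 without each library in turn, lowest without control replicate 7. The blastocyst call was lost with FPKM as deposited (0.82; limma adjusted p = 0.0716), with FPKM rescaled to TPM (0.94; limma adjusted p = 0.0645) and without the filter (0.83; limma adjusted p = 0.183), at log2 fold changes as large or nearly so. It was also lost in the fit over all libraries (0.79; limma adjusted p = 0.0574). Leaving out control replicate 1 or 6, or KD replicate 1, 5 or 6, ended it too, with log2 fold changes of 0.58, 0.71, 0.76, 0.80 and 0.74. Over all alternatives its limma adjusted p ranged from 0.0190 to 0.183. From morulae to blastocysts its KD effect differed by 0.36 (SE 0.51; limma adjusted p = 0.691).

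H2afj, a variant that is similar to canonical H2A, lies on chromosome 6 (ENSMUSG00000060032.6, 136808244 to 136810074, plus strand) and its longest coding transcript also has 1 exon. Its coding sequence shares a stretch of 51 bases with that of H2afx. The FPKM of H2afj were 27.3, 30.4, 18.7 and 14.5 in 2-cell controls and 28.4, 17.6 and 19.3 in KD 2-cell embryos. In morulae they were 51.5, 55.4, 21.7 and 36.3 in controls and 73.8, 43.6 and 66.1 in KD embryos. In blastocysts they were 39.1, 29.1, 23.7 and 48.0 in controls and 76.4, 40.8, 73.3 and 38.3 in KD embryos. The groups overlapped at each stage, with 2 KD libraries above all controls in morulae and 2 in blastocysts. The log2 fold change was 0.73 in morulae (SE 0.29; limma adjusted p = 0.119) and 0.68 in blastocysts (SE 0.28; limma adjusted p = 0.0786), and neither was called. Without control replicate 7 the morula value was 0.48. In blastocysts it was called with FPKM rescaled to TPM (limma adjusted p = 0.0477), with a term for the range of replicate numbers (limma adjusted p = 0.0429) and without KD replicate 6 (limma adjusted p = 0.0456), in a range of 0.0429 to 0.248 over all alternatives.

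H2afy, the more abundant macroH2A gene in these embryos, lies on chromosome 13 (ENSMUSG00000015937.15, 56073619 to 56136361, minus strand). It was at 0.0167 to 0.226 FPKM in 2-cell controls and at 0.0631 to 0.249 FPKM in KD 2-cell embryos, too low to be tested. In morulae it was at 6.56, 4.97, 4.92 and 5.10 FPKM in controls and at 3.04, 3.97 and 3.85 FPKM in KD embryos. In blastocysts it was at 14.0, 15.8, 14.5 and 23.6 FPKM in controls and at 9.23, 6.98, 7.85 and 10.0 FPKM in KD embryos. All KD libraries were below all controls at these stages, by less than for H2afz and H2afv. The log2 fold change was -0.36 in morulae (SE 0.16; limma adjusted p = 0.154), not called, and -0.89 in blastocysts (SE 0.20; limma adjusted p = 0.00438). The call in blastocysts held without each library in turn. An antisense gene, Gm47071, overlaps 11231 bases of H2afy, and its reads cannot be told apart without strand, but it was at no more than 0.0506 FPKM in any library.

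H2afy2, the other macroH2A gene, lies on chromosome 10 (ENSMUSG00000020086.6, 61738665 to 61784147, minus strand) and passed the filter in no comparison. In control blastocysts it was at 0.534, 0.997, 0.765 and 0.353 FPKM and in KD blastocysts at 0.177, 0.178, 0.0865 and 0.119 FPKM. In control morulae it was at 0.308, 0.205, 0.115 and 0.104 FPKM and was listed at 0 in all 3 KD libraries. KD libraries were below all controls at both stages, at levels under 1 FPKM. Without the filter limma tested it as well, and in blastocysts its log2 fold change was -0.52 (SE 0.12; limma adjusted p = 0.0355), a call that the planned filter leaves out. From morula to blastocyst H2afy2 was also called without the filter in controls, with a log2 fold change of 0.45 (limma adjusted p = 0.0334). In KD embryos it was listed at 0 in all morulae and entered that fit through blastocysts alone. It thus had to be higher in KD blastocysts, and its call there (limma adjusted p = 0.0270) had a direction fixed beforehand. No fold is given for it. Aifm2, on the opposite strand, overlaps H2afy2 by 596 bases, and the libraries do not tell the strands apart. Aifm2 was at 0.269 to 0.397 FPKM in control morulae and 0.0045 to 0.0771 FPKM in KD morulae. In blastocysts it was at 0.620 to 1.76 FPKM in controls and 0.0339 to 0.125 FPKM in KD embryos. Both genes were thus lower in KD libraries, and the part of shared reads in the values of H2afy2 was not tested.

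**Figure D3:**
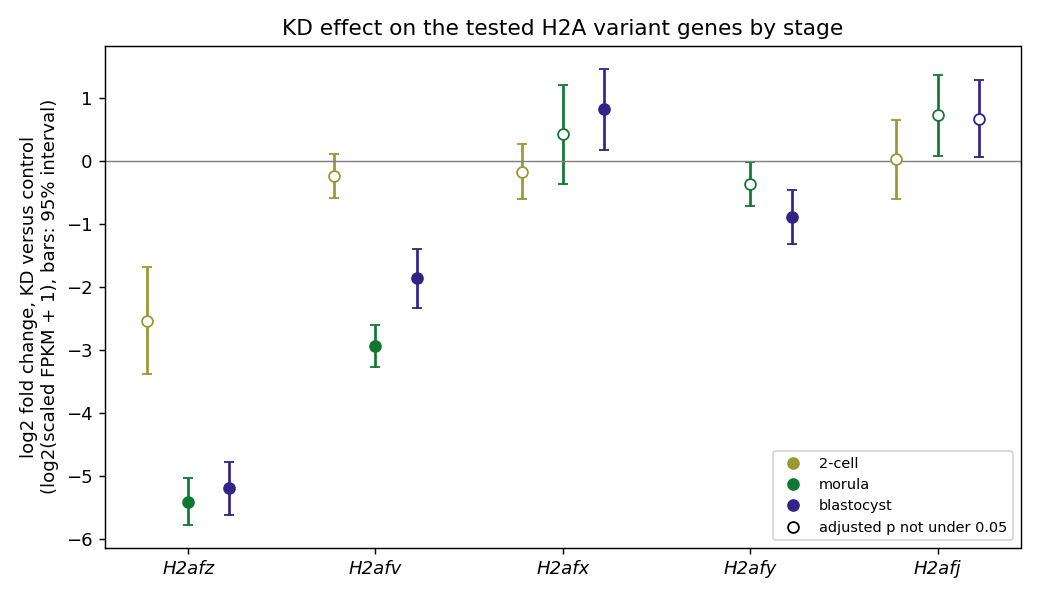
Log2 fold change between KD and control embryos of the H2A variant genes tested, 4 at the 2-cell stage and 5 at each later stage, with 95% intervals; filled points have a limma adjusted p under 0.05. H2afz lies at -5.41 in morulae and -5.19 in blastocysts, and H2afx at 0.83 in blastocysts, the call that other scalings did not keep.

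From the 2-cell to the morula stage in control embryos, limma called 3 of 5 members tested, all higher, where 83.3% of all genes were called. The median log2 fold change of all genes was 0.10 in that comparison, and -0.23 with FPKM rescaled to TPM, so smaller changes depend on the scaling. H2afx rose by 2.81 (SE 0.31; limma adjusted p = 3.76e-06) and H2afy by 2.47 (SE 0.13; limma adjusted p = 8.18e-09) on the log2 scale. H2afy was under 1 FPKM in all 2-cell libraries and passed the filter through morulae alone, so it had to be higher there. Its value depends on the pseudocount and was 4.69 with 0.1 in place of 1. H2afj rose by 0.79 (SE 0.31; limma adjusted p = 0.0318), a call lost with TPM (limma adjusted p = 0.218), without the filter (limma adjusted p = 0.108), in the fit over all libraries (limma adjusted p = 0.0799) and without 2-cell replicate 4 or 5 or morula replicate 1 or 2, where the value was 0.66, 0.57, 0.76 and 0.68. Over the alternatives that kept every library, the value of H2afj lay between 0.43 and 0.82. Its limma adjusted p ranged from 0.00422 to 0.218 over all alternatives. H2afz and H2afv had values of 0.25 and -0.13 and were not called, although with TPM the value of H2afz was -0.14 and that of H2afv -0.51 (limma adjusted p = 0.00229, in a range of 0.00229 to 0.944 over its alternatives).

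In KD embryos all 5 members tested were called between these stages, 3 higher and 2 lower, where 83.5% of all genes were called. H2afz fell by 2.60 (SE 0.42) and H2afv fell by 2.80 (SE 0.15), while H2afx rose by 3.40 (SE 0.20), H2afy by 2.00 (SE 0.16) and H2afj by 1.52 (SE 0.25). H2afy again passed the filter through its 3 morula libraries alone, and its value was 3.94 with the pseudocount of 0.1. In the scaling to TPM the median of all genes moved from 0.12 to -0.30.

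From morula to blastocyst in control embryos 3 of 5 members were called, where 56.4% of all genes were called. H2afz rose by 0.65 (SE 0.19; limma adjusted p = 0.0124) and H2afy by 1.39 (SE 0.17; limma adjusted p = 3.92e-05), while H2afv fell by 0.89 (SE 0.14; limma adjusted p = 0.00022), so that the forms of H2A.Z moved in opposite directions. Without the filter, H2afz was not called (limma adjusted p = 0.0522, in a range of 0.000634 to 0.0522 over its alternatives). In KD embryos 2 of 5 members were called, where 37.5% of all genes were called: H2afz rose by 0.87 (SE 0.18; limma adjusted p = 0.0026) and H2afy by 0.87 (SE 0.20; limma adjusted p = 0.00519), while H2afv had a value of 0.20 (SE 0.24; limma adjusted p = 0.532). The median of all genes there was -0.03, and 0.13 with FPKM as deposited and 0.12 with TPM.

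Markers of cell types were compared in the same way, against 13.3% of all genes called in morulae and 36.5% in blastocysts. In blastocysts the trophectoderm markers summed to 1709 to 2396 FPKM in controls and 925 to 1195 FPKM in KD embryos. Most of these sums came from Krt18, with means of 799 and 389.7 FPKM, and Id2, with 755 and 299 FPKM, and the list's median log2 fold change was -0.29. Of 9 markers tested 1 was higher and 2 lower, Id2 (log2 fold change -1.33) and Krt18 (-1.02), while the higher one, Tfap2c (0.96), was chosen for naming after its values were seen. In morulae 1 of 8 was called, Elf3 (-0.99), chosen in the same way. Of 4 inner cell mass markers tested in morulae 1 was called, Nanog, at -2.23 (SE 0.37; limma adjusted p = 0.00647), and the sum of the 7 markers was 141 to 174 FPKM in controls and 41.9 to 60.7 FPKM in KD embryos, most of it Nanog in controls, with means of 106 and 20.7 FPKM. In blastocysts 0 of 4 were called, with a median of 0.51, Nanog at 0.29, and sums of 120.1 to 229.5 FPKM in controls and 148 to 311 FPKM in KD embryos, which overlapped. Genes of the 2-cell stage summed to 0.636 to 3.42 FPKM in control blastocysts and 4.63 to 29.3 FPKM in KD blastocysts, where 2 of 3 tested were called, Tcstv3 (2.01) and Zfp352 (1.56), the latter under 1 FPKM in all controls, so that it passed the filter through KD libraries alone and had to be higher. In these bulk libraries, fewer cells of a type and less RNA per cell cannot be told apart, and the part of these markers in the changes of H2afy or H2afx was not tested.

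Genes that place or remove H2A.Z were given as a list of 23, all of them tested in morulae. There 0 were called higher and 3 lower, near the 13.3% of all genes called, with a median log2 fold change of -0.06, against 0.02 over all genes. Dmap1, a subunit of both exchange complexes, was at -1.47 (SE 0.18; limma adjusted p = 0.00165), and the acetyltransferase gene Kat5 at -1.29 (SE 0.20; limma adjusted p = 0.00487). The third, Ruvbl1, at -0.62, was chosen for naming after its values were seen. In blastocysts 5 of 22 tested were called higher and 3 lower, near the 36.5% of all genes called, with none past 2-fold and a median of 0.10. Named after their values were seen, the higher ones were Epc1, Vps72, Ruvbl2, Mbtd1 and Znhit1, and the lower ones Mrgbp, Morf4l2 and Dmap1. Srcap, the ATPase gene of an exchange complex, had log2 fold changes of -0.06, -0.25 and -0.34 at the 3 stages, and Anp32e, which removes H2A.Z, of 0.14, 0.30 and 0.29. None of these 6 values was called.

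The counts of the next lists stand against 13.3% of all genes called in morulae and 36.5% in blastocysts. Of the genes of H2A.X phosphorylation and its readers, limma called 0 of 9 tested in morulae and 1 of 10 in blastocysts, Mre11a (-0.85), with medians of -0.15 and -0.19. Of 4 genes of macroH2A handling 1 was called lower at each of these stages, Aplf, with log2 fold changes of -0.82 and -0.85, and the list medians were 0.19 and -0.33. Of 6 chaperone genes of H2A and H2B, 0 were called in morulae and 1 in blastocysts, Ncl (0.54), with medians of 0.10 and 0.17. Mre11a, Aplf and Ncl were chosen for naming after their values were seen. At the 2-cell stage, where limma called 0 of all genes, 0 genes of these 4 lists were called.

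The other H2A genes of the table, 41 by their symbols, include the variant genes H2afb and H2al, which the choice by symbol left out, and the clustered replication-dependent genes, whose RNA mostly lacks a poly(A) tail and is poorly caught by these libraries, and whose near-identical copies share reads. Their summed FPKM was 62.0 ± 13.95 (SD, n = 4) in 2-cell controls and 81.6 ± 19.3 (SD, n = 3) in KD 2-cell embryos, 317 ± 23.7 (SD, n = 4) and 318 ± 41.2 (SD, n = 3) in morulae, and 435 ± 116 (SD, n = 4) and 408 ± 66.7 (SD, n = 4) in blastocysts. The sums of KD and control embryos overlapped at each stage. Of those tested, limma called 0 of 15 in morulae, where 13.3% of all genes were called, and 1 of 17 in blastocysts, where 36.5% were. It was Hist2h2aa1 (0.97), chosen for naming after its values were seen, which passed the filter through KD libraries alone. The list medians were 0.13 and -0.09. The most abundant in controls were Hist1h2ap, Hist1h2ao and Hist1h2ag, with means of 116, 105 and 32.5 FPKM in control morulae and 118, 105 and 33.6 FPKM in KD morulae. From the 2-cell to the morula stage in controls 14 of 15 tested were called higher, against 43.0% of all genes, but 7 of the 15 were under 1 FPKM in all 2-cell libraries and passed the filter through morulae alone.

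The genes most like each member over the 22 libraries were taken by Pearson's r of log2(FPKM + 1) among 9460 genes. The libraries share their stages and treatments, so r is a description only. For H2afz they were its pseudogenes Gm6722 (r = 0.987) and Gm13007 (r = 0.981), and Tmcc1 (r = 0.932), which had means of 117 FPKM in control and 3.20 FPKM in KD morulae. Its means were 165 FPKM in control and 5.08 FPKM in KD blastocysts, and 48.1 and 12.8 FPKM at the 2-cell stage. For H2afv they were Elp6 (0.928), Dnajc17 (0.901) and Gtsf1 (0.899). For H2afx they were Sh3d21 (0.982), Dus1l (0.982) and Cyc1 (0.981), and for H2afy AU021092 (0.990), Lamtor4 (0.988) and Ndufb9 (0.986). H2afy2 was most like Cela2a (0.921), Gm14023 (0.909) and Spint5 (0.900), and H2afj most like Gm8116 (0.850), Gm14176 (0.836) and Ciao2b (0.834). The r values of H2afy2 rest on low levels, since it was under 1 FPKM in every library. Among the members, r was 0.822 between H2afz and H2afv, 0.822 between H2afx and H2afy and 0.728 between H2afx and H2afj, while it was -0.661 between H2afj and H2afv.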

How the data were processed

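Values were the FPKM deposited by the authors for 22 libraries and 55335 genes, made with STAR on mm10 and StringTie 2.1.4. The authors used DESeq2 1.30.1 on read counts for their own comparisons, and those counts were not used here. The members and lists were chosen with earlier results of these data known. Libraries were scaled by median-of-ratios factors (0.905 to 1.20), computed on genes detected in each library compared. After adding a pseudocount of 1, log2 values of genes reaching 1 FPKM in 3 or more libraries were fitted with limma 3.58.1 in R 4.3.3 (eBayes with a trend, no covariates, Benjamini-Hochberg adjustment). The code was tested on simulated data. Reference sequences were compared with Python 3.11.15 and biopython 1.88. Of the table's identifiers, 54587 matched GENCODE M21 in the same version, all 6 members among them.

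Named were the 6 members, Srcap and Anp32e, per list and KD comparison the DEGs that changed most, 3 at most, the 3 other H2A genes with the highest mean control FPKM, and the 3 genes with the highest r to each member among genes reaching 5 FPKM in 3 or more libraries. Genes sharing sequence with H2afz were also named. Alternatives changed the scaling, the pseudocount (0.1), the filter, the libraries that share the spread, replicate blocks, a term for the range of replicate numbers, and left out each library in turn.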

Additional observations from a re-analysis of the deposited data

Results flagged for a closer look

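In groups of 4 libraries, the distance of the farthest library from its neighbour was divided by the range of the group and set against Dixon's critical value. Of 76 such groups of member levels, shares and list sums, 3 exceeded it, and chance alone would give about 1 in 20. H2afy in control morulae had a ratio of 0.888, from replicate 1 at 6.56 FPKM. H2afy2 in 2-cell controls had a ratio of 1, since replicate 2 was at 0.187 FPKM and the other libraries were listed at 0. The summed FPKM of the other H2A genes in 2-cell controls had a ratio of 0.869, from a library at 82.8 FPKM.

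The KD effect differed between stages for 2 members by limma's interaction term, which called 1.44% of all genes between 2-cell embryos and morulae and 11.7% between morulae and blastocysts. Between 2-cell embryos and morulae the difference was -2.88 for H2afz and -2.71 for H2afv on the log2 scale. Between morulae and blastocysts it was 1.04 for H2afv. Without the filter on low FPKM, the first value of H2afz (limma adjusted p = 0.0536) and the last value of H2afv (limma adjusted p = 0.0659) were not called, and the latter was not called without KD morula replicate 6 either (limma adjusted p = 0.0500). Over the alternatives that kept every library, these values lay between -2.97 and -2.88 for H2afz and between 1.02 and 1.37 for H2afv.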

How the results depend on the processing

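Of 781 values recomputed under an alternative, 727 kept their direction and their side of the threshold, or a count within 1.5 times. At the 2-cell stage, where limma called 0 members, 1 member, H2afz, was called in the fit over all 22 libraries (log2 fold change -2.49). Without each library in turn the count was 0 to 1 and the log2 fold change of H2afz -3.12 to -2.19. For the difference of the KD effect between 2-cell embryos and morulae, 1 member was called without the filter, in place of 2. Between morulae and blastocysts 0 were called without the filter in place of 1, and 0 to 1 without each library in turn. The cause was not tested.

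H2afj changed sign at the 2-cell stage from 0.03 to -0.0339 with FPKM as deposited, -0.067 with TPM and -0.0664 with the range of replicate numbers, and lay between -0.18 and 0.20 without each library. Its KD effect differed from morulae to blastocysts by -0.09, and by 0.0634 with FPKM as deposited and 0.23 with TPM (-0.31 to 0.16 without each library). H2afz between 2-cell and morula controls went from 0.25 to -0.14 with TPM. H2afx between KD morulae and blastocysts was 0.02, and -0.19 to 0.22 without each library. None of these values was called.

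Same-numbered control and KD libraries had correlations of 0.209, 0.0146 and 0.214 (2-cell), 0.181 and 0.0944 (morula), and 0.0860, -0.111, 0.354 and 0.00149 (blastocyst), so the numbers were not taken to pair the libraries. In morulae, control replicates 7 and 8 had correlations of 0.185 and 0.347 with KD replicate 6, and pairs of numbers 1 or 2 with 6, 7 or 8 had -0.278 to -0.0945. At the 2-cell stage, KD replicate 1 had 0.209 and 0.205 with control replicates 1 and 2. KD replicate 4 had 0.214 and 0.163 with control replicates 4 and 5. Pairs of KD replicate 1 with controls 4 and 5, or of KD replicate 4 with controls 1 and 2, had -0.237 to -0.168. KD replicate 2 had -0.0211 to 0.0146 with the controls. With a term for the range of numbers, 2038 genes were called in morulae in place of 1458. With the number as a replicate block, limma called 0 members at the 2-cell stage, 2 in morulae and 4 in blastocysts, and 3 and 5 between 2-cell embryos and morulae in controls and KD embryos, among 0, 1624, 4571, 10854 and 10320 genes. With the block, H2afj was at -0.16 at the 2-cell stage, H2afx at -0.01 and H2afj at 0.25 in morulae and H2afz at -0.18 between 2-cell and morula controls. For controls from morula to blastocyst, no paired analysis was possible because these groups share only number 1. KD morulae and blastocysts share 1 and 6, so a block could have been fitted, but it was not run for them or for the differences between stages. The block changed no other direction or call.

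In morulae 465 genes were higher and 993 lower in KD embryos, 281 and 1553 with FPKM as deposited, and 240 and 1787 with TPM. In KD embryos from morula to blastocyst, 2186 rose and 2073 fell, or 2824 and 1368 with FPKM as deposited and 2686 and 1383 with TPM. For the difference between morulae and blastocysts the split was 691 and 804, or 894 and 703 as deposited and 1287 and 468 with TPM. For that between 2-cell embryos and morulae it was 64 and 146, or 65 and 276 as deposited and 35 and 168 with TPM. Genes called in morulae numbered 1458, and 412 without the filter and 910, 855, 579 and 551 without control replicate 7 or 8 or KD replicate 1 or 2. At the 2-cell stage 0 became 33 in the fit over all libraries, 1 without control replicate 2 and 3 without KD replicate 1. From KD morulae to blastocysts 4259 became 2830 without morula replicate 2. For the difference between 2-cell embryos and morulae 210 became 341 as deposited, 135 with the pseudocount of 0.1, 128 without the filter and 86 to 336 without each library. For that between morulae and blastocysts 1495 became 988 without the filter and 962 without KD morula replicate 1. The cause was not tested.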
